A study of Mus musculus with 9 samples.

Results

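Olfactory receptor genes were examined in mouse testis RNA by the reads that they gave over 9 libraries. Genes with a symbol made of Olfr and a number numbered 1107 in the table, and 77 of them (6.96%) were chosen by a summed count of at least 60 over the 9 libraries, and they make up the group described here. A further 330 had counts below this minimum, and 700 had no count in any library. The minimum was set on the counts that are compared here, so the presence of a gene in the group and its summed count are descriptions and were not tested.

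The libraries were made from poly(A) RNA of the testis of wild-type male mice. By the methods, the wild-type animals were of the ICR stock, and no age is given for these testes. The 3 acRIP libraries held RNA recovered with an antibody against N4-acetylcytidine (ac4C), an acetylated form of cytidine. The 3 IgG libraries held RNA recovered with a control immunoglobulin, and the 3 input libraries held the RNA before recovery. A β-globin RNA made in vitro and carrying ac4C was added before recovery, and all libraries were amplified by Smart-seq2, which primes reverse transcription at the poly(A) tail. The text describes triplicates without saying that they were separate precipitations, so the p-values measure only the spread between these libraries, which may be technical. The recovered RNA was not quantified by the authors, so each comparison is between shares of a library and not between amounts of RNA.

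Olfactory receptors are G protein-coupled receptors of the nasal epithelium, where an olfactory sensory neuron typically displays a single kind of receptor from the largest gene family of the mouse genome. Odorant binding there activates the G protein Golf (Gnal) and adenylate cyclase (Adcy3), and the cyclic AMP opens a channel of Cnga2, Cnga4 and Cngb1. The coding sequence of a receptor usually lies in a single exon, preceded by noncoding exons, and the genes lie in clusters on most chromosomes. Some receptor transcripts are also known from testis and sperm, among them Olfr16 (MOR23), a receptor of the floral odorant lyral.

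The libraries held 14647542 to 31340090 counts on genes. At least 1 count was found for 71 to 72 members in an input library, 66 to 68 in an IgG library and 63 to 65 in an acRIP library, whereas over all 1107 receptor genes these numbers were 197 to 230, 150 to 174 and 95 to 110. Members together took 246.8 to 266.1 CPM in input (counts scaled to the total of a library), 194.1 to 218 in IgG and 255.7 to 271.3 in acRIP. Even numbers made up 81.9% to 84.3% of the counts from 1 to 20 in a library, which counting each mate of a pair would tend to give, so fewer fragments than counts may lie behind a value. Markers of germ cells together stood at 14900 to 17100 CPM in the 9 libraries. Those of olfactory sensory neurons stood at 8.32 to 18.9 and were uneven. Ano2, Gnal, Cnga4, Gng8 and Rtp1 of this list had 1073, 585, 410, 308 and 94 counts over the 9 libraries. Gng13, Rtp2 and Cnga2 had 45, 26 and 14. Omp, which marks mature olfactory neurons, was at 0 in all libraries but 1 of input, which held 8 counts. Stoml3 was at 0 in all libraries but 1 of input, which held 2. The red cell list stood at 687 to 897 CPM in acRIP, 202 to 216 in IgG and 156 to 160 in input, and it contains the β-globin gene Hbb-bs, while the added probe was β-globin RNA. The macrophage list stood at 56.6 to 60.5 in acRIP, 66.3 to 69.4 in IgG and 88.6 to 95.3 in input, and the Sertoli cell list at 567 to 602, 657 to 690 and 786 to 821. The Leydig cell list stood at 876 to 902, 940 to 957 and 1040 to 1080 in the same order, and the peritubular muscle list at 53.7 to 58, 51.5 to 56.5 and 38.1 to 39.9. The part of these differences in the receptor values was not tested.

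All 77 members were annotated as protein coding, and each had an open reading frame from a start to a stop codon in the reference sequence. Receptors of this family share a short stretch at the inner end of a membrane helix, where aspartate, arginine and tyrosine couple the receptor to its G protein. The codons for these residues were found in 60 members, and another codon followed those for aspartate and arginine in 16. This second form was sought only where a methionine codon stood 3 codons before that for aspartate. Neither form was found in Olfr930, and aspartate and arginine codons elsewhere in it were not sought. The stretches below are shown because these genes carry results that follow, among them a leading level and large differences in each direction. They are the coding strand of RefSeq GRCm38.p6 (mm10), with the 3 codons in capitals.
Olfr701: atggcctatGATAGGTATgtggccatttgt
Olfr1391: atggcctttGACCGCTATgcagctgtgtgc
Olfr622: atggcatttGATCGCTTTgtggctatttgc
Olfr653: atggcttttGATCGATATgttgctatctgc
Olfr703: atggcctatGACAGGTATgtggccatttgt
Olfr16: atgggttatGATCGTTATgtggctatttgt
Olfr1426: atggctctaGATCGATATgtggccatctct

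These stretches lie within the coding exons. Those of Olfr701 and Olfr703 lie at chr7:106818436-106818465 and chr7:106844964-106844993, both on the plus strand. Those of Olfr622 and Olfr653 lie at chr7:103639755-103639784 (minus) and chr7:104580017-104580046 (plus). Those of Olfr1391, Olfr16 and Olfr1426 lie at chr11:49327764-49327793 (plus), chr1:172957148-172957177 (plus) and chr19:12088416-12088445 (minus). In Olfr622 the last of the 3 codons encodes phenylalanine in place of tyrosine. The closest other receptor gene in the genome was sought by alignments over at least 80% of the coding sequence, and 7 members had no such match. For the others it was identical at a median of 89.2% of aligned positions (67.7% to 98%), and 16 members had a copy identical at over 95%. The authors counted uniquely mapped reads, so the counts of such close copies, among them Olfr126, Olfr127 and Olfr128, are uncertain.

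Members lay on 14 chromosomes, with 10 each on chromosomes 7 and 11 and 8 each on chromosomes 16 and 17. These were 21.6% of the 37 receptor genes of chromosome 16, and 6 of the 282 of chromosome 2 (2.1%). The exon length in the table had a median of 3235 bases (942 to 7721), of which a median of 29% was coding, and 71 members had more than 1 exon. For the 1030 other receptor genes the median length was 2928 bases. Cytosine, the base that is acetylated, made up a median of 20.74% of the exon bases of members and 20.57% of those of the other receptor genes. Receptors fall into an older class I, shared with fish, and a class II of land vertebrates. Of 75 members with a class, 3 were of class I (4%), against 125 of 1081 receptor genes with a class (11.6%). Exons of another gene overlapped only those of Olfr19, over 6.1% of its length.

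In input, which shows the poly(A) RNA before recovery, the receptor genes were low per length and uneven. The median of the members was 0.255 FPKM (CPM divided by the exon length in kilobases), below the median of 0.722 over the 33250 genes with any input count, and 19 members stood above that median. FPKM was over 1 in 15 members. For these levels in whole testis, few cells with an RNA and little of it per cell cannot be told apart. Olfr761, Olfr128, Olfr701 and Olfr303 led, with Olfr733, Olfr127, Olfr275 and Olfr126 after them, and these 8 genes took 60.7% to 63.0% of all member counts in an input library, 57.9% to 58.7% in an IgG library and 54.6% to 56.4% in an acRIP library.

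Olfr761 was at 12.7, 11.6 and 10.4 FPKM in the 3 input libraries, the mean being 11.6 ± 1.15 (SD, n = 3). Olfr128 was at 10.6, 11.1 and 10.5 FPKM, with a mean of 10.8 ± 0.327 (SD, n = 3). The libraries of these neighbours on chromosome 17 overlapped, so their order is not set by these data, and they ranked 5208 and 5454 among all genes. The place of Olfr761 also depends on its listed exon length of 1029 bases, 94.5% of it coding, against 3681 bases in Olfr128. By summed input counts Olfr761 had 912 and Olfr128 had 2988. Olfr701 on chromosome 7 was at 6.86, 8.32 and 8.37 FPKM (mean 7.85 ± 0.855), and Olfr303 on the same chromosome at 6.14, 6.18 and 7.18 (mean 6.5 ± 0.587), so these overlapped with each other and lay below all libraries of Olfr761 and Olfr128. Olfr733 on chromosome 14 was at 4.36, 5.31 and 4.75 FPKM, below every library of Olfr303. The 3 genes after it did not differ beyond their spread, with Olfr127 at 2.67 to 3.78 FPKM, Olfr275 at 2.85 to 3.45 and Olfr126 at 3.04 to 3.13. Olfr16 was at 0.378 FPKM on average and ranked 19714 of 33250 genes, within the upper 59.3%.

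**Figure D1:**
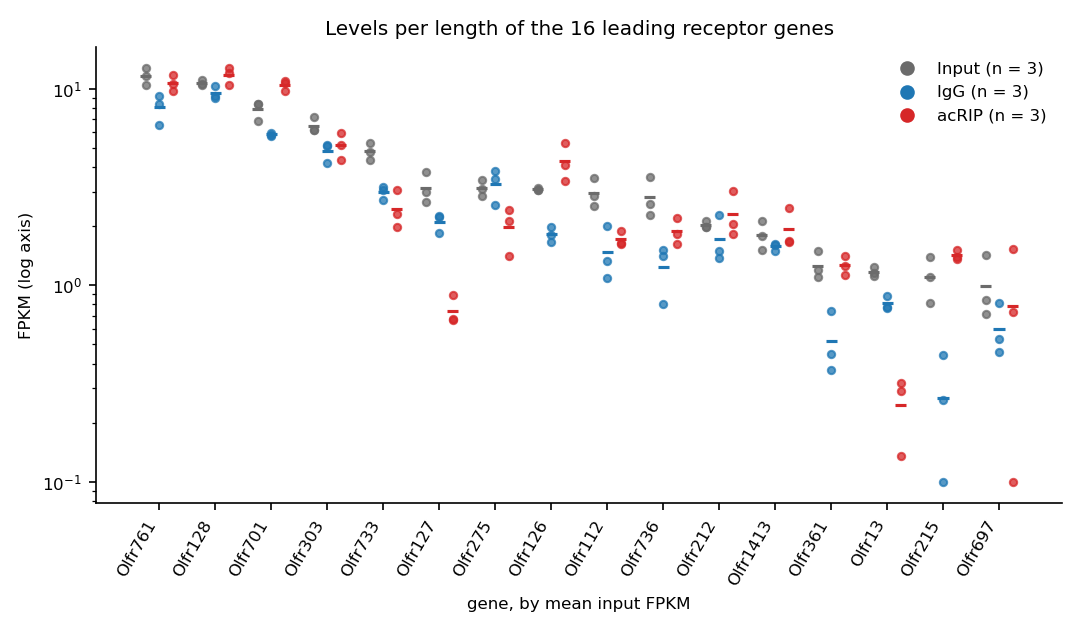
FPKM on a log axis of the 16 receptor genes with the highest mean input level, in each input (grey), IgG (blue) and acRIP (red) library; points are libraries and short lines are means of 3. Olfr761 and Olfr128 stood near 11 FPKM in input, and Olfr127 and Olfr13 had acRIP points below all their input and IgG points.

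Of these 8 leading genes, 6 were within the 2-fold limit in acRIP against IgG and against input, while Olfr127 was past it against both groups and Olfr126 against IgG. Olfr128 had 1228, 902 and 858 counts in input, 487, 635 and 705 in IgG and 714, 876 and 644 in acRIP, and scaled for library size its acRIP libraries lay above IgG and overlapped with input. The fitted log2 fold change (acRIP over IgG) was 0.36 ± 0.09 (SE, n = 3 per group, edgeR adjusted p = 0.000849) and acRIP over input it was 0.21 ± 0.09 (adjusted p = 0.0303), both within the 2-fold limit. The difference from input did not pass without input replicate 1 or 3 or acRIP replicate 1 or 2. Olfr701 was above both in every acRIP library, by 0.88 ± 0.09 over IgG (edgeR adjusted p = 2.17e-09) and 0.49 ± 0.09 over input (adjusted p = 1.32e-05), also within the limit. Olfr733 was lower in acRIP than in input by a log2 value of -0.9 ± 0.15 (edgeR adjusted p = 5.97e-06). It passed the 2-fold limit without acRIP replicate 1 (-1.08, edgeR adjusted p = 2.46e-06). Olfr275 had 302, 257 and 232 counts in input, 127, 243 and 218 in IgG and 115, 89 and 138 in acRIP, and after scaling every acRIP library lay below all others. The log2 difference was -0.69 ± 0.19 against IgG and -0.58 ± 0.19 against input (edgeR adjusted p = 0.0023 and 0.00694), and without acRIP replicate 2 that against input did not pass (edgeR adjusted p = 0.0851).

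The comparison of acRIP with IgG asks which RNAs the antibody recovered beyond the control immunoglobulin, and that with input asks which were recovered beyond their share of the starting RNA. Of the 77 members, 72 passed the filter on low counts and were tested with 22438 other genes, while Olfr1509, Olfr196, Olfr1349, Olfr1392 and Olfr463 were not. Calls were made by edgeR's quasi-likelihood test where the adjusted p (Benjamini-Hochberg) was under 0.05 and the difference exceeded 2-fold. Against IgG, 23 tested members were higher in acRIP (31.9%), where 11.5% of all tested genes were, and 17 were lower (23.6%), where 20.9% of all were. Against input, 25 were higher (34.7%) beside 17.7% of all tested genes, and 14 were lower (19.4%) beside 22.9% of all. The median fitted log2 fold change of the tested members was 0.46 over IgG and 0.24 over input, against -0.09 and -0.1 over all tested genes, and the members' medians were the same with genes at 0 in a group set at their bounds. Members with few reads can reach the minimum through the group where they are high, and 20 of the 77 would not reach it without the acRIP libraries, 14 without input and 16 without IgG. These counts are therefore descriptions of a group that the counts themselves chose. For a member that reaches the minimum only through the group where it was high, the difference follows in part from that choice, so its values are given below without a p-value.

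**Figure D2:**
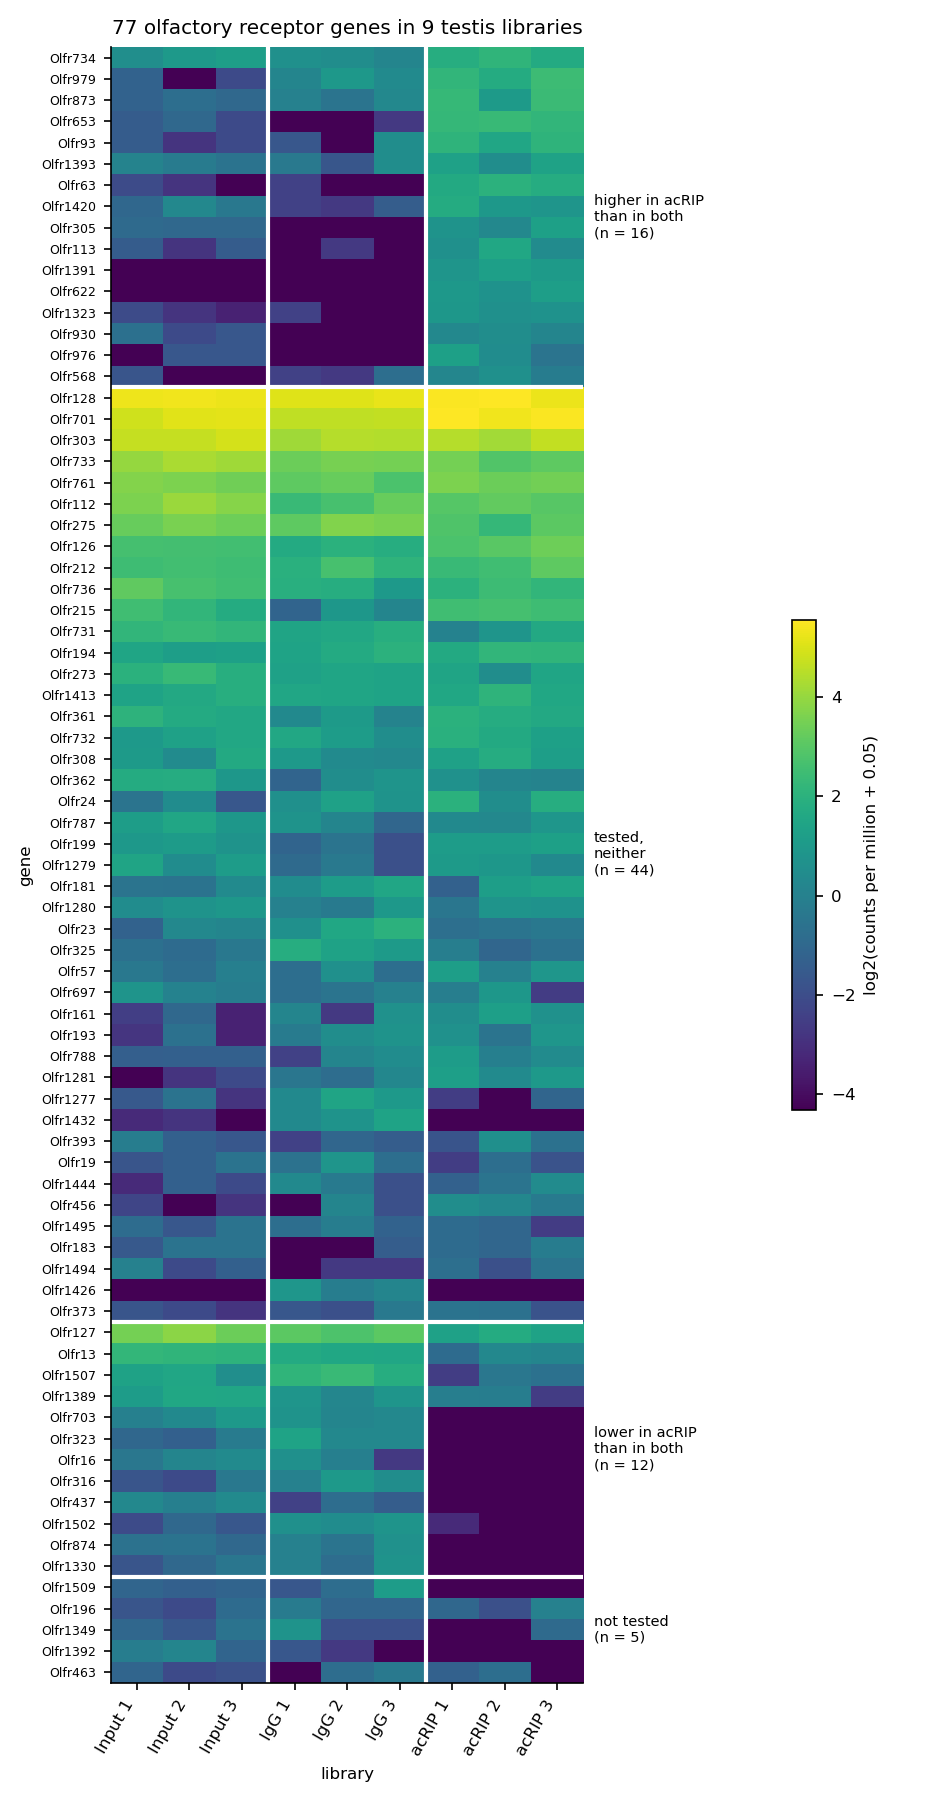
All 77 members (rows) in the 9 libraries (columns), coloured by log2(CPM + 0.05) and ordered by call and then by summed count. The 16 genes called higher in acRIP are darker in the input and IgG columns than in the acRIP columns, and 7 of the 12 called lower have 0 counts in all 3 acRIP columns.

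Against IgG and input together, 16 members were higher in acRIP (22.2%, with 7.88% of all tested genes) and 12 were lower (16.7%, with 17% of all). The members higher in both were Olfr1391, Olfr622, Olfr305, Olfr976, Olfr930, Olfr653, Olfr63, Olfr113, Olfr1323, Olfr1420, Olfr93, Olfr873, Olfr979, Olfr568, Olfr1393 and Olfr734. They were low in input, with a median of 0.078 FPKM there and a highest value of 0.428 in Olfr734, whereas the members lower in both had an input median of 0.378. Only 5 of the 16 (Olfr734, Olfr1393, Olfr979, Olfr873 and Olfr1420) would reach the minimum of 60 without their acRIP counts. All 12 of the others would, but they are low in acRIP and can depend on the other groups instead. Without IgG counts Olfr1502, Olfr316, Olfr1330, Olfr323 and Olfr874 would not reach it (23, 28, 33, 40 and 43 counts). Without input counts Olfr437, Olfr16, Olfr1330 and Olfr874 would not (18, 41, 54 and 55). The exon cytosine content of the 16 had a median of 20.52% (16.81% to 28.13%) and that of the 12 a median of 21.85% (19.12% to 26.41%), so these ranges overlapped. Among the 40 members with a summed count under 200, 35 were tested and 10 were higher and 8 lower, and among the 37 with 200 or more these numbers were 6 and 4.

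Of the genes higher in both, Olfr1391 and Olfr622 had no counts outside acRIP and were chosen by their acRIP counts alone. Olfr1391 had 0 counts in all 3 input and all 3 IgG libraries and 28, 44 and 34 in acRIP. Against a floor of 3 counts per library, acRIP exceeded IgG at least 12.1-fold and input at least 17.7-fold, or 6.04-fold and 8.84-fold if both mates were counted and the floor is 6. Olfr622, a class I receptor, had 0 counts in the same 6 libraries and 30, 30 and 38 in acRIP, at least 11.3-fold over IgG and at least 16.5-fold over input. In both genes each acRIP library lay far above the 6 others.

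The other class I members were also higher in both, and all 3 reached the minimum only through acRIP, with 0, 26 and 22 counts outside it in Olfr622, Olfr653 and Olfr568. Olfr653 had 10, 10 and 4 counts in input, 0, 0 and 2 in IgG and 76, 93 and 75 in acRIP, so no libraries of acRIP overlapped with the others. Its scaled ratio of acRIP over IgG was 128 (95% exact interval 35 to 1060, counting error only). This interval takes each count as separate, so it is too narrow if both mates were counted, as are the intervals below. The log2 fold change over input was 3.95 ± 0.47 (SE, n = 3 per group). Olfr568 had 8, 0 and 0 counts in input, 2, 2 and 10 in IgG and 18, 28 and 14 in acRIP, on the log2 scale 2.15 ± 0.8 above IgG and 3.55 ± 0.86 above input. Its call over IgG was lost without IgG replicate 1, IgG replicate 2, acRIP replicate 1 or acRIP replicate 2. The 3 class I genes lie on chromosome 7.

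Olfr63, Olfr113 and Olfr1323 had 2 IgG counts each, all in 1 library, and 10, 21 and 11 counts outside acRIP, so they too reached the minimum through acRIP. Olfr63 had 6, 2 and 0 counts in input, 2, 0 and 0 in IgG and 50, 74 and 58 in acRIP, a ratio of 95.3 over IgG (95% exact interval 26 to 793) and a log2 fold change over input of 5.09 ± 0.66 (6.17 without input replicate 1). Olfr113 had 10, 2 and 7 counts in input, 0, 2 and 0 in IgG and 24, 54 and 22 in acRIP, a ratio over IgG of 52.3 (14.1 to 438). Olfr1323 on the X chromosome had 6, 2 and 1 counts in input, 2, 0 and 0 in IgG and 29, 28 and 27 in acRIP, a ratio over IgG of 44 (11.8 to 369). In these genes all acRIP libraries were above all others, and over input the log2 fold change of Olfr113 was 3.0 ± 0.66 and that of Olfr1323 was 3.83 ± 0.74 (4.55 without input replicate 1).

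Olfr305, Olfr976 and Olfr930 had input reads and no IgG reads, and their 35, 12 and 28 counts outside acRIP were also below the minimum. Olfr305 had 15, 10 and 10 counts in input, 0 in all IgG libraries and 26, 22 and 40 in acRIP, at least 10.2-fold over IgG and higher than input by a log2 value of 1.96 ± 0.58. Olfr976 had 0, 6 and 6 counts in input, 0 in IgG and 38, 25 and 11 in acRIP, at least 8.61-fold over IgG and 3.14 ± 0.8 over input on the log2 scale (2.48 without input replicate 1). Olfr930 had 18, 4 and 6 counts in input, 0 in IgG and 19, 26 and 18 in acRIP, at least 7.2-fold over IgG and 1.85 ± 0.65 over input (2.48 without input replicate 1). With a floor of 6 counts these bounds over IgG were 5.09-fold, 4.31-fold and 3.6-fold. All 3 had acRIP libraries above input after scaling. The call of Olfr930 over input was lost without input replicate 2, input replicate 3 or acRIP replicate 2.

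Olfr1420, Olfr93 and Olfr873 had reads in all groups. Olfr1420 had 14, 26 and 16 counts in input, 2, 2 and 6 in IgG and 54, 35 and 29 in acRIP, on the log2 scale 3.61 ± 0.62 above IgG and 1.66 ± 0.51 above input (edgeR adjusted p = 9.11e-06 and 0.00436). Without IgG replicate 3 the value over IgG was 4.25. Without acRIP replicate 1 its call over input was lost (1.31, edgeR adjusted p = 0.0588). Olfr93 had 10, 2 and 4 counts in input, 4, 0 and 26 in IgG and 68, 52 and 72 in acRIP, so 1 IgG library stood above the others and still below acRIP. It had 46 counts outside acRIP, below the minimum, and its log2 difference from IgG, 2.76 ± 0.61, was 4.92 without IgG replicate 3 and 2.16 without IgG replicate 2. Olfr873 had 12, 12 and 10 counts in input, 14, 12 and 22 in IgG and 78, 38 and 88 in acRIP, or 2.17 ± 0.43 over IgG and 3.21 ± 0.45 over input on the log2 scale (edgeR adjusted p = 5.33e-05 and 1.57e-07). The last 3 genes of this set were Olfr979, Olfr1393 and Olfr734, with log2 fold changes over IgG of 1.67, 1.45 and 1.54. The call of Olfr1393 over IgG was lost without IgG replicate 2 or acRIP replicate 3, and that of Olfr734 over input without input replicate 1 or acRIP replicate 2.

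**Figure D3:**
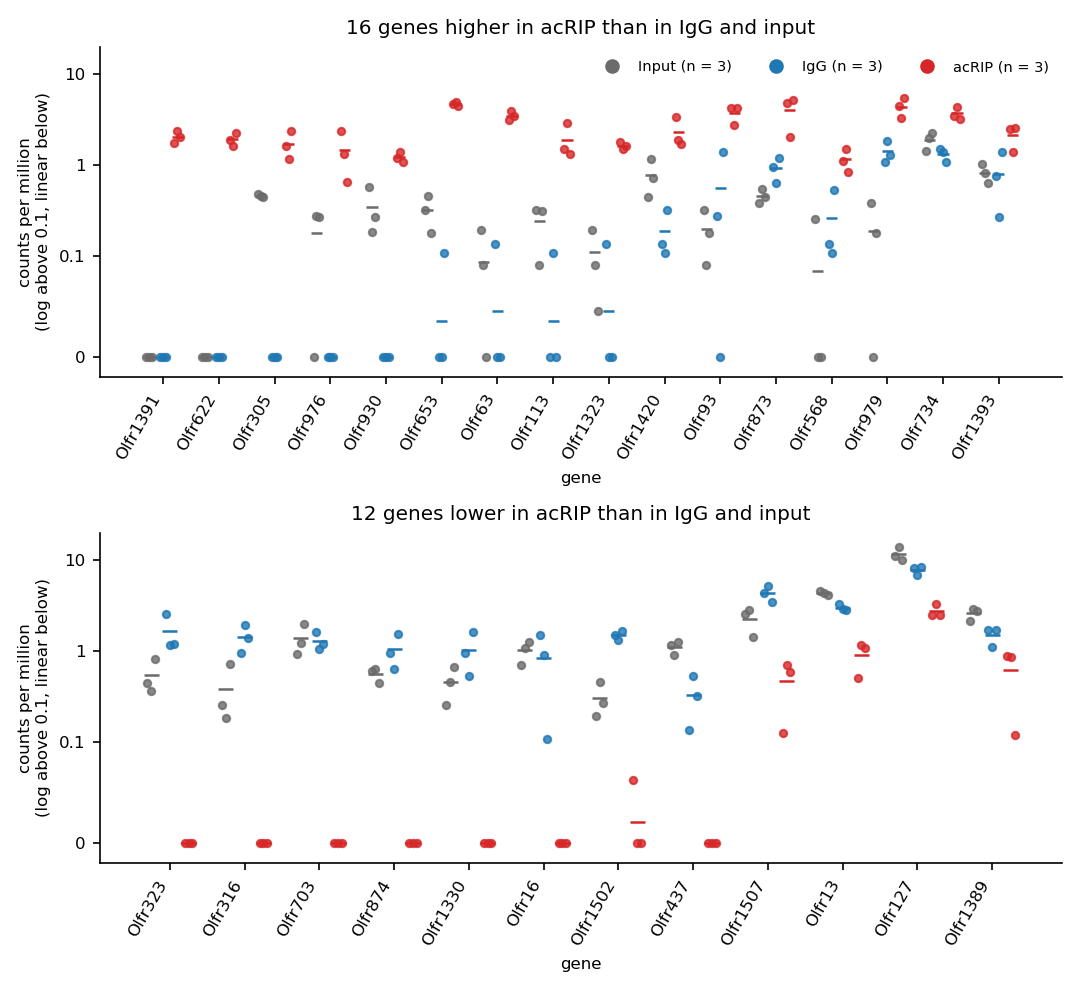
CPM in each library of the 16 members called higher (top) and the 12 called lower (bottom) in acRIP than in both IgG and input, on an axis that is logarithmic above 0.1 and linear below; points are libraries and short lines are means of 3. Olfr1391 and Olfr622 have points above 0 in acRIP alone, and 7 of the lower genes have all acRIP points at 0.

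Of the 12 members lower in both, 7 had no acRIP count at all: Olfr323, Olfr316, Olfr703, Olfr874, Olfr1330, Olfr16 and Olfr437. Olfr703 had 29, 27 and 44 counts in input, 24, 20 and 22 in IgG and 0 in every acRIP library. This put acRIP at least 7.13-fold below IgG and at least 7.42-fold below input, or 3.56-fold and 3.71-fold with a floor of 6 counts (edgeR adjusted p = 1.62e-06 and 6.86e-07). Olfr701, in the same run of neighbours on chromosome 7, lay above both groups in every acRIP library. Olfr16, the lyral receptor, had 22, 24 and 28 counts in input, 22, 17 and 2 in IgG and 0 in acRIP. Thus 1 IgG library was far below the other 2, and acRIP lay at least 4.61-fold below IgG and at least 5.48-fold below input, or 2.3-fold and 2.74-fold with a floor of 6 counts (edgeR adjusted p against IgG = 0.000109). Without its input counts Olfr16 would not reach the minimum.

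Olfr323, Olfr316, Olfr874 and Olfr1330 had 40, 28, 43 and 33 counts outside IgG and reached the minimum only with their IgG counts. Olfr323 had 14, 8 and 18 counts in input, 38, 22 and 22 in IgG and 0 in acRIP, at least 9.07-fold lower than IgG and at least 2.91-fold lower than input. Olfr316, in the same group of neighbours on chromosome 11, had 8, 4 and 16 counts in input, 14, 36 and 26 in IgG and 0 in acRIP, at least 7.83-fold and 2.08-fold lower. In both genes IgG was above input, so the bound over input was the smaller. Olfr874 was at least 5.79-fold lower than IgG and 3.04-fold lower than input, and Olfr1330 at least 5.69-fold and 2.48-fold lower. With a floor of 6 counts the bounds of the 4 genes against input lay between 1.04-fold and 1.52-fold, so a larger difference from input was not detectable at this depth if mates were counted. The remaining 5 were Olfr1502, Olfr127, Olfr1507, Olfr13 and Olfr1389. The call of Olfr1389 over IgG was lost without IgG replicate 1, IgG replicate 3 or acRIP replicate 3.

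Among all 77 members, 11 (14.3%) had 0 counts in every acRIP library, 5 (6.49%) in every IgG library and 3 (3.9%) in every input library. Over the 22651 genes with a summed count of at least 60, these shares were 8.26%, 1.13% and 0.503%. A gene with few counts more often has none in a group, and all 11 members at 0 in acRIP had a summed count under 200. Counts scaled for library size placed every acRIP library above every IgG library in 30 members and below in 19, while 27.5% and 37.7% of those 22651 genes did so. Against input these numbers were 29 and 20 members, and 33.1% and 41.6% of the genes. IgG libraries all lay above input in 16 members and below in 25, as in 28.7% and 29.8% of the genes.

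**Figure D4:**
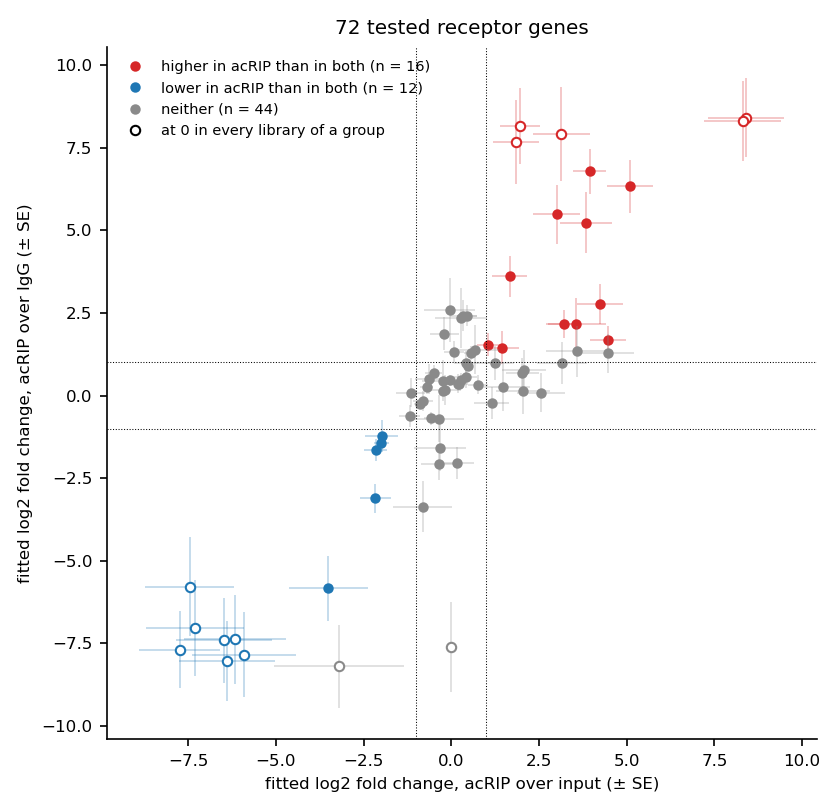
Fitted log2 fold change of acRIP over IgG against that of acRIP over input for the 72 tested members, with standard errors; open points had 0 counts in every library of a group, where the fitted value depends on the prior count and is no bound, and dotted lines mark a fold change of 2. The 16 red and 12 blue points passed in both comparisons; the axes share the acRIP libraries.

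The comparison of IgG with input shows what the beads and the control immunoglobulin took up without the antibody against ac4C. Members higher in IgG numbered 16 (22.2%, with 13.5% of all tested genes), and 15 were lower (20.8%, with 7.22% of all). The median fitted log2 fold change was -0.18, and -0.16 with genes at 0 in a group set at their bounds. Olfr1426 had 0 counts in all input and all acRIP libraries and 26, 16 and 20 in IgG, at least 10.3-fold over input or 5.15-fold with a floor of 6 counts. Olfr1432 had 2, 2 and 0 counts in input, 18, 31 and 48 in IgG and 0 in acRIP (log2 4.99 ± 0.82 over input). Outside IgG these genes had 0 and 4 counts, so they reached the minimum only through IgG. Both lie on chromosome 19 in the run that also holds Olfr1420, which was higher in acRIP. Olfr1281 had 0, 2 and 4 counts in input, 10, 10 and 21 in IgG and 37, 24 and 33 in acRIP, above input in IgG by 3.18 ± 0.78 on the log2 scale and in acRIP by 4.46 ± 0.75. Without input replicate 1 these were 2.51 and 3.79, and without input replicate 3 they were 4.16 and 5.44. Olfr1281 reached the minimum only with its acRIP counts. Its difference between acRIP and IgG, 1.28 ± 0.59, was not called in the main fit. It was called without input replicate 1, input replicate 3 or IgG replicate 3, and these calls rest in part on the counts that chose the gene.

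The members lowest in IgG relative to input were Olfr305, Olfr930 and Olfr976, whose counts are given above. They were at least 2.58-fold, 1.91-fold and 1.01-fold lower in IgG than in input against a floor of 3 counts, so the bounds of Olfr930 and Olfr976 were under the 2-fold limit. With a floor of 6 only Olfr305 kept a bound, of 1.29-fold. The call of Olfr976 was lost without input replicate 2 or 3 or any of the IgG libraries. Olfr113, Olfr1420, Olfr323 and Olfr316 also lost a call between IgG and input without 1 of the input or IgG libraries. Over all members, 19 of the 31 calls in this comparison were shared without input replicate 1 and 22 to 29 without any other library.

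Neighbouring receptor genes differed in direction within several runs. With at most 200 kb between neighbours, 56 members fell in 19 runs, and 5 runs held at least 4 members. On chromosome 17, Olfr126, Olfr127, Olfr128 and Olfr761 lie within 105.6 kb (37847483 to 37953079) and belong to a single receptor family by their older names. Olfr127 had 347, 311 and 221 counts in input, 122, 129 and 157 in IgG and 40, 62 and 42 in acRIP. Every acRIP library was below all others, the log2 difference being -1.45 ± 0.21 against IgG and -1.99 ± 0.21 against input (edgeR adjusted p = 7.76e-07 and 4.34e-10). Its neighbour Olfr126 had 192, 132 and 132 counts in input, 48, 73 and 66 in IgG and 107, 150 and 175 in acRIP, higher than IgG by 1.28 ± 0.21 (edgeR adjusted p = 6.47e-06) and higher than input by 0.56 ± 0.2 (adjusted p = 0.0142, and 0.12 without acRIP replicate 3). The coding sequences of Olfr127 and Olfr128 were 96.3% identical where aligned, so reads unique to either come from the positions at which they differ and from the noncoding exons.

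On chromosome 14, Olfr731, Olfr732, Olfr733, Olfr734 and Olfr736 lie within 160.7 kb. Olfr734 had 45, 44 and 50 counts in input, 22, 26 and 20 in IgG and 56, 82 and 54 in acRIP and was called higher than both (log2 1.54 ± 0.34 and 1.06 ± 0.32, edgeR adjusted p = 0.000232 and 0.0041). Olfr731, in contrast, was lower in acRIP than in input by a log2 value of -1.19 ± 0.31 (edgeR adjusted p = 0.00099), and the 3 others were not called in acRIP. On chromosome 11, Olfr1393 and Olfr1391 were higher than both groups and Olfr1389 was lower, within 154.7 kb. Olfr1391 had 0 counts outside acRIP, so its direction follows from the choice of the members. Olfr1389 had 68, 64 and 62 counts in input, 25, 21 and 32 in IgG and 14, 16 and 2 in acRIP. Of the 6 members in the run on chromosome 16, none of the 5 tested was called against both groups, while Olfr183 and Olfr199 were higher than IgG by 2.35 and 2.42 on the log2 scale. The call of Olfr183 was lost without IgG replicate 1, IgG replicate 2 or acRIP replicate 3, and without its acRIP counts it would not reach the minimum. All 4 of the run on chromosome 2 (Olfr1277, Olfr1279, Olfr1280 and Olfr1281) were outside the calls against both, Olfr1277 being lower than IgG by -3.37 and Olfr1279 higher by 1.87. Olfr1277 had 34 counts outside IgG and reached the minimum only with its IgG counts, so its difference follows in part from that choice. In 2 runs of a pair both genes moved in 1 direction: Olfr976 and Olfr979 on chromosome 9 were higher, and Olfr437 and Olfr13 on chromosome 6 were lower, than both groups. Olfr976 had 12 counts outside acRIP and Olfr437 had 18 outside input, so they reached the minimum only through these groups. Their directions follow in part from that choice, and whether neighbours share a direction was not tested.

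**Figure D5:**
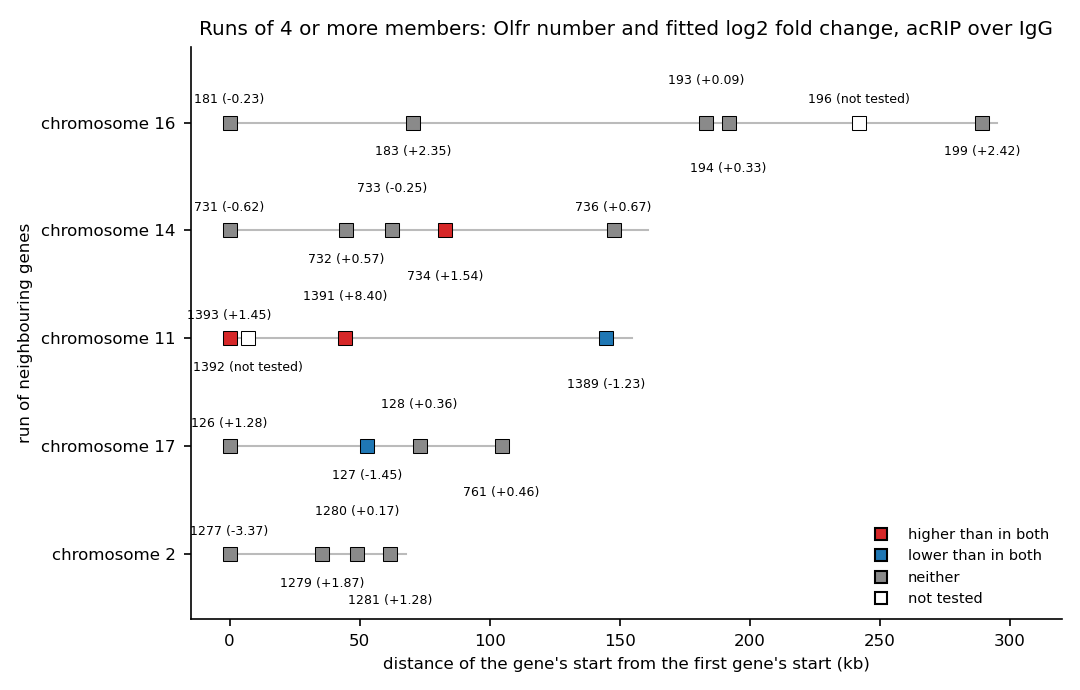
The 5 runs that hold at least 4 members, with each gene placed by the distance of its start from that of the first gene (kb) and labelled with its Olfr number and its fitted log2 fold change of acRIP over IgG; colours give the call against both groups. On chromosome 11 genes called in both directions lie in 1 run, and on chromosome 17 Olfr127 stands apart from its 3 neighbours.

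The other genes of the olfactory pathway were present in part. Of 27 listed, 21 passed the filter, 3 were higher (14.3%, with 7.88% of all tested genes) and 5 lower (23.8%, with 17% of all) in acRIP against both groups. The median log2 fold change of the 21 was -0.22 over IgG and -0.21 over input. The chaperones that bring receptors to the cell surface were uneven. Rtp1 had 42, 12 and 24 counts in input, 0, 10 and 6 in IgG and 0 in acRIP and was called lower than both (edgeR adjusted p = 0.00458 and 4.38e-05). IgG replicate 1 was at 0 as the acRIP libraries were, so IgG and acRIP overlapped and the size of that difference is not set. Ric8b, a chaperone of Golf, in contrast had 68, 54 and 50, then 61, 60 and 57, then 172, 233 and 180. It was higher than both (log2 1.76 and 2.39, edgeR adjusted p = 2.67e-08 and 2.13e-11). Reep1 was within the 2-fold limit. Of the signalling genes, Gnal was higher in acRIP (log2 1.1 over IgG and 1.88 over input, edgeR adjusted p = 0.00198 and 2.12e-06). The adenylate cyclase Adcy3 did not pass (0.3 and 0.27, edgeR adjusted p = 0.295 and 0.314). The main channel subunit Cnga2 had 14 counts, all in input, and was not tested. The chloride channel Ano2 was lower than both, by -2.37 and -3.11 on the log2 scale (edgeR adjusted p = 3.64e-08 and 2.21e-11). Arrb2, which shuts receptors off, Gnas and the transcription factor Ebf3 were also lower than both, and Ldb1, a cofactor of Lhx2, was higher. Ebf3, like Rtp1, was at 0 in every acRIP library, and no bound was computed for these genes.

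Of the other chemoreceptor families, 22 of 121 Vmn2r pheromone receptor genes (18.2%) and 14 of 207 Vmn1r genes (6.8%) reached the same minimum. Both families serve the vomeronasal organ. Of the tested Vmn2r genes, 9 of 21 were higher (42.9%) and 3 lower (14.3%) in acRIP than in both groups, and of the Vmn1r genes 2 of 12 (16.7%) and 3 of 12 (25%), where 7.88% and 17% of all tested genes were. These genes were chosen by the same minimum, which acRIP counts alone can supply, so the shares are descriptions. Among taste receptors, Tas1r1, Tas1r3 and Tas2r123 reached the minimum, and no Taar gene did.

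Just inside the minimum were Olfr373 with 61 counts and Olfr463 and Olfr1426 with 62 each, of which Olfr1426 alone had no acRIP count. Just outside, Olfr691 had 59 counts, which were 8, 8 and 8 in input, 12, 12 and 11 in IgG and 0 in acRIP. Olfr389 had 58, all in IgG (18, 12 and 28), and Olfr796 had 56, of which none were in acRIP. All 3 just outside thus had no acRIP count.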

How the data were processed

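Counts per gene were deposited by the authors, without normalization, as whole numbers for 9 libraries. Per the methods and the submitters' processing notes, paired reads were trimmed with Trim Galore 0.6.7, mapped to mm10 with STAR 2.7.10a and counted on genes with featureCounts 2.0.2 from unique mappings. Which annotation was counted on, with or without strand, and by read or by pair, is not given in the sources used here. Groups and replicate numbers came from the sample labels. Gene identifiers were named through GENCODE vM21 on the same build (55141 of 55401).

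Members were genes named Olfr and a number with a summed count of at least 60. The members, lists and tests were chosen with earlier results of these data known. Counts were tested with edgeR 4.0.16 in R 4.3.3 by filterByExpr, TMM and the quasi-likelihood test (two-sided), with 1 mean per group over all 9 libraries and 22510 genes, adjusted by Benjamini-Hochberg (adjusted p under 0.05, fold change over 2). The procedure was tested on simulated data. FPKM was computed from the counts, the deposited exon length and the library total. A member at 0 in every library of a group is given as a bound against 3 counts per library (6 if both mates were counted), and one with 1 to 3 counts in a group as a ratio with a 95% exact interval. Bounds and intervals cover counting error only, and a count of 0 allows up to 3. The intervals take each count as separate and were not recomputed for the case that both mates were counted.

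Named members were the 8 with the highest input FPKM, up to 12 higher and up to 6 lower in acRIP than in both groups by the log2 fold change over IgG, the 3 largest and 3 lowest called in IgG over input, the 3 genes on each side of the minimum, and Olfr16. Olfr568, Olfr734, Olfr1389 and others beyond this rule were named for their class or neighbours after their values were seen. Alternatives were RLE and upper quartile scaling, DESeq2 1.42.0, a summed count of 10 as the filter, 6 libraries in the fit, a test against a fold change of 2, a replicate block, halved counts, each library left out, other minimums, and members without exon overlap. Same-numbered libraries did not deviate together (correlations -0.007 to 0.035 over 9 pairs). Stretches were read from RefSeq's GRCm38.p6 genome, and those of some members are not reported here. No per-sample column was left unused (0 columns).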

Additional observations from a re-analysis of the deposited data

How the results depend on the processing

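RLE scaling, upper quartile scaling, DESeq2, the filter at a summed count of 10, halved counts, a minimum of 30 summed counts and the 76 members without exon overlap kept every count of called members within 1.5 times. A minimum of 120 summed counts, which leaves 50 tested members, gave 15 higher and 9 lower over IgG, 8 lower over input, 10 higher in IgG than in input, and 10 higher and 6 lower against both. A fit of only the 6 libraries compared, in which the filter left 61, 52 and 55 members tested, gave 9 lower in acRIP than in input, 8 lower in IgG than in input and 4 lower against both, since among others Olfr16, Olfr323, Olfr316, Olfr874 and Olfr1330 were then not tested in at least 1 comparison. With halved counts Olfr316, Olfr874, Olfr976 and Olfr1330 were likewise not tested. The test against a fold change of 2 gave 14 higher over IgG, 6 higher and 5 lower in IgG over input, and 9 higher against both. With each library left out, the calls in acRIP over IgG were 21 to 24 higher and 17 to 19 lower, over input 21 to 25 and 13 to 16, and against both 14 to 17 and 11 to 13, and members higher and lower in IgG than in input numbered 12 to 15 and 10 to 15. Of 1491 values of named members under these alternatives, 38 lost the threshold, 9 passed it and 1444 were scored as unchanged. Of the values called in the main fit, 0 changed direction. A value not called in the main fit was scored as unchanged even where its sign turned. Olfr93 in IgG over input did so, from 1.46 to -0.69 without IgG replicate 3. The replicate numbers are shared by the groups and do not pair the libraries, and with the replicate block all 28 calls against both remained, 38 of the 39 calls over input and all 40 over IgG, and 25 of the 31 between IgG and input. Depth limits the members with few reads, for which only bounds or wide intervals can be given where a group held 3 counts or fewer.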
